A study of Homo sapiens with 4 samples.

Results

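The classical glucocorticoid response targets are genes that cortisol and its synthetic analogs switch on in many cell types. Their members here were the rows of the deposited count table whose gene identifier belongs to FKBP5, PER1, DUSP1, KLF9, SGK1, CEBPD, CRISPLD2, ZBTB16, ERRFI1 or TSC22D3, 10 genes of 61544 in the table. All 10 were found, and 9 had a count in at least 1 library, as did 30392 genes of the whole table. The libraries came from HT29 and HCT116, human colorectal cancer lines of epithelial origin. Each line gave 1 library after 24 h in lipopolysaccharide (LPS) at 1 ug/mL, a lipid from the outer membrane of Gram-negative bacteria that the study used to model intestinal inflammation, and 1 untreated control library. All 4 cultures grew in Advanced DMEM/F-12 with fetal bovine serum, and the labels name no added steroid. No condition had a repeat culture, so nothing in these data measures how far a culture of either line varies.

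Glucocorticoids bind the glucocorticoid receptor, the product of NR3C1, which waits in the cytoplasm on a heat shock protein complex and moves to the nucleus once it holds ligand. There it binds DNA, often far from the gene it acts on, and raises the transcription of genes that restrain inflammation, reset metabolism and limit the receptor itself. In the gut epithelium, glucocorticoids are a mainstay of treatment for inflammatory bowel disease, and several of their targets also answer to growth factors, stress kinases, cAMP or the circadian clock.

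Total gene counts were 19105058 to 21268959 per library, protein-coding genes took 96.4% to 97.0% of them, and mitochondrial transcripts took 3.75% to 4.29% in HT29 and 5.01% to 7.16% in HCT116. Of 8 colon epithelial markers, 7 had at least 10 counts in both HT29 libraries and 6 in both HCT116 libraries. KRT20 was at 0 in every library. VIL1, the brush border protein villin, had 3004 and 2637 counts in HT29 with and without LPS, against 0 and 4 counts in HCT116. EPCAM, CDH1, KRT8 and KRT18 were also higher in HT29. CDX2 (39 and 18 counts in HT29, against 572 and 474 in HCT116) and KRT19 (27633 and 27249, against 35505 and 40723) were lower in HT29. Of 8 markers of immune, stromal and endothelial cells, the T cell gene CD3E and the fibroblast gene COL1A2 were at 0 throughout, while COL1A1 had 59 and 81 counts in HT29, against 1999 and 2225 in HCT116. The monocyte gene CD14 (137 and 140 counts in HT29, against 9 and 12 in HCT116) and the endothelial gene PECAM1 (28 and 39, against 5 and 14) ran the other way. VWF, also endothelial, was higher in HCT116 (4 and 5 counts in HT29, against 35 and 39 in HCT116). Summed over those 8 markers, the level was 11.1 and 13.9 CPM of the library total in HT29, against 104 and 108 in HCT116, where COL1A1 gave most of it. Their part in the results was not tested.

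The receptor separated the lines. NR3C1 (chr5:143277931-143435512) had 0 counts in HT29 with LPS and 1 count in the HT29 control, against 560 counts in HCT116 with LPS and 615 in the HCT116 control. Scaled by library total with TMM factors (CPM, used for the levels that follow), these were 0 and 0.055 CPM in HT29, against 27.1 and 27.2 CPM in HCT116. The HT29 values lie below the level that 3 counts would give, 0.151 CPM with LPS and 0.166 CPM in the control, so NR3C1 was not detectable there at this depth. With the HT29 LPS library set at that floor of 3 counts, the HCT116 LPS library was at least 179-fold higher. The summed counts of both libraries of a line gave a ratio of 1028 for HCT116 over HT29 (95% exact interval 184 to 40626), an interval that, like all counting intervals here, covers counting error only. LPS left the level in HCT116 at a log2 ratio of -0.01 (95% counting interval -0.17 to 0.16).

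The sequences near the members' start sites were searched for 4 short motifs on both strands, those of the receptor and of 2 other inputs, the clock and cAMP. RefSeq (GRCh38.p14) gave 14 windows, each 250 bases before to 50 bases after a start site, for 8 of the 10 members, and none was matched for CEBPD and ZBTB16. The palindromic letters of a glucocorticoid response element, GNACANNNTGTNC, occurred in 0 of the 14 member windows and in 0.39% of all 35116 windows. A single AGAACA arm occurred in 1 window each of FKBP5 and SGK1 and in 14.8% of all windows. The E-box CACGTG, read by the clock factors, occurred in 1 window each of FKBP5, PER1 and DUSP1 and in 7.26% of all windows. The letters TGACG, the core of the cAMP response element, occurred in DUSP1 and in 3 of the windows of TSC22D3, and in 24.6% of all windows. A match is a description of letters, and no match says only that these letters are not in these windows.

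The 250 bases before a start are shown for PER1, DUSP1 and TSC22D3, whose windows hold an E-box or TGACG. FKBP5 also holds an E-box, in a window not shown. Whether these letters bear on the levels described next was not tested. Capitals mark CACGTG and TGACG on either strand (CGTCA is TGACG on the other strand), and all 3 genes lie on the minus strand. The windows are chr17:8152405-8152654 for PER1, chr5:172771196-172771445 for DUSP1 and chrX:107717063-107717312 for TSC22D3.
PER1: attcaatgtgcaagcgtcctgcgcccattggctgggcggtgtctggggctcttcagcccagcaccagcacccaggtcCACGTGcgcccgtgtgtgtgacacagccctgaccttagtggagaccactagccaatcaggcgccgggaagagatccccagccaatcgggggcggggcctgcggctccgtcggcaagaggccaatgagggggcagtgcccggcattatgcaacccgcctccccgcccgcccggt
DUSP1: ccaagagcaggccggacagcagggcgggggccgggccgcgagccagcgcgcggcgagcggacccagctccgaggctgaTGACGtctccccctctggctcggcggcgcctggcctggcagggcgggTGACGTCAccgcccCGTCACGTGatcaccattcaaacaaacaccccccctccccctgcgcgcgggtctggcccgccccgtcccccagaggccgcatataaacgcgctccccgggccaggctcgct
TSC22D3: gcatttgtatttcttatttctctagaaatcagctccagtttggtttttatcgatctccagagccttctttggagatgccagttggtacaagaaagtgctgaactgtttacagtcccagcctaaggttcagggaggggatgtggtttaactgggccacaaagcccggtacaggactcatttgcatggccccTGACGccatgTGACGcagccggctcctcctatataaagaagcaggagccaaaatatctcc
Counted from the start site as 0, the E-box of PER1 begins at -173 and that of DUSP1 at -108. In DUSP1 the core letters begin at -172, -125, -122 and -111, of which those at -125 and -122 overlap to read TGACGTCA and the last overlaps the E-box. In the TSC22D3 window shown they begin at -60 and -50, and in other windows of the gene, not shown, at -1 and -123.

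With the receptor at 0 and 1 counts in HT29 and at 560 and 615 in HCT116, the targets did not follow 1 direction. Of the 9 members tested, 3 were higher in HT29 (SGK1, CEBPD and TSC22D3), 5 were lower in HT29 (ERRFI1, KLF9, PER1, CRISPLD2 and DUSP1), and FKBP5 did not pass the test. Lines were compared by edgeR's quasi-likelihood test with LPS as a block and Benjamini-Hochberg adjustment over 14516 genes, called at an adjusted p under 0.05. Over all genes tested, 38.0% were called as higher and 38.6% as lower, the shares against which the 3 and 5 of 9 are read. The members' median log2 fold change of HT29 over HCT116 was -0.75, against -0.02 over all genes. The LPS and the control library of a line served as its 2 libraries. With LPS as a block, the 1 residual degree of freedom holds only how far the LPS change differs between the lines. The p-values rest on that difference and on the spread that edgeR shares over all genes, and not on repeat cultures. HT29 and HCT116 differ in much besides NR3C1, and the receptor and the rest of the difference between the lines cannot be told apart. In bulk RNA, fewer cells that express a gene and less of its RNA per cell cannot be told apart either.

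**Figure D1:**
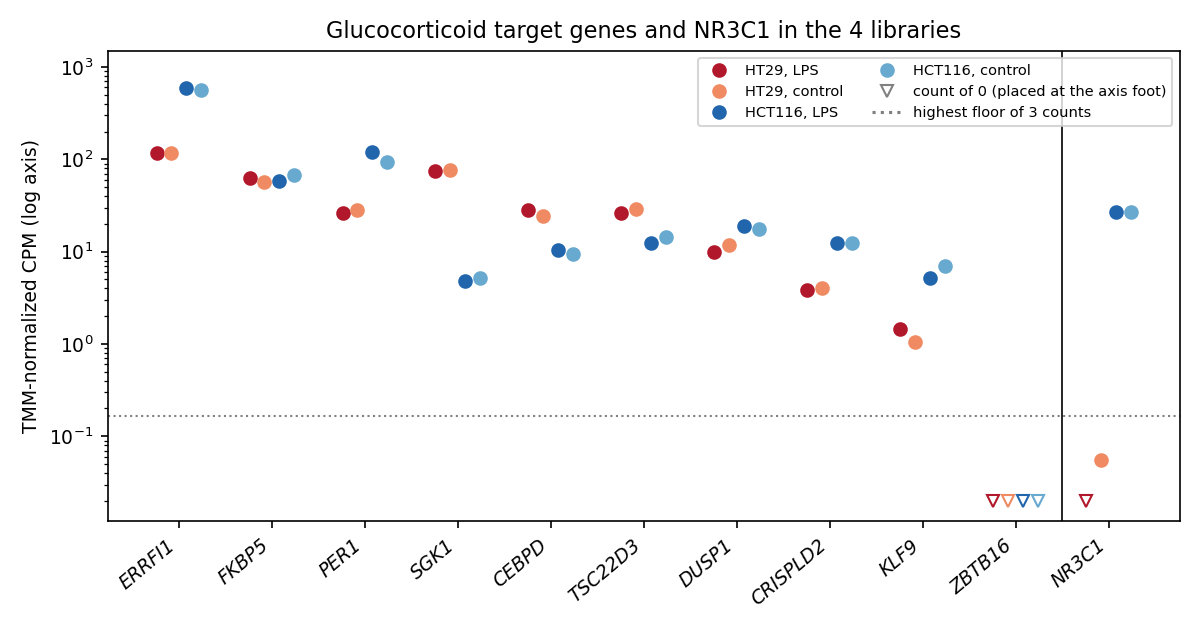
Level of each target and of NR3C1 in the 4 libraries, in TMM-normalized CPM on a log axis, with HT29 left of HCT116 and LPS left of control within a line. SGK1, CEBPD and TSC22D3 sit higher in HT29, ERRFI1, PER1, KLF9, CRISPLD2 and DUSP1 sit higher in HCT116, ZBTB16 is at 0 in all 4 libraries, and NR3C1 is at 27.1 and 27.2 CPM in HCT116 alone above the dotted line, the highest level (0.166 CPM) that 3 counts give in any library.

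FKBP5 (chr6:35573585-35728583) encodes an immunophilin that binds the receptor complex and lowers its affinity for hormone, and is often used as a readout of receptor activity. It had 1238 counts (62.4 CPM) in HT29 with LPS and 1012 (56.1 CPM) in the HT29 control, against 1215 (58.7 CPM) in HCT116 with LPS and 1531 (67.7 CPM) in the HCT116 control. The 4 values interleave, with the highest and a middle one in HCT116. The log2 fold change of HT29 over HCT116 was -0.09 (SE 0.089, 95% interval -0.28 to 0.09), with an adjusted p of 0.354 by edgeR's quasi-likelihood test. Within the LPS libraries it was 0.09 (95% counting interval -0.03 to 0.20) and within the control libraries -0.27 (-0.39 to -0.15). FKBP5, of the members expressed, was thus the 1 with no call between a line with 1 count and a line with 1175 counts of NR3C1 over its 2 libraries. Scaled by library size alone, a setting that puts the median of all genes at -0.18, the fold change of FKBP5 was -0.24 and its adjusted p 0.0307 by the same edgeR test.

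Of the receptor's relatives, the mineralocorticoid receptor was counted in both lines. This receptor, the product of NR3C2, also binds cortisol. NR3C2 had 50 and 38 counts in HT29 with and without LPS, against 23 and 36 counts in HCT116, a log2 fold change of 0.78 (95% interval -0.13 to 1.69) that did not pass the test (adjusted p 0.110 by edgeR's quasi-likelihood test). HSD11B2, the enzyme that inactivates cortisol, had 221 and 214 counts in HT29, against 328 and 298 in HCT116 (log2 fold change -0.33, 95% interval -0.69 to 0.03, adjusted p 0.0886 by the same edgeR test). PGR and HSD11B1, which encode the progesterone receptor and the cortisol-regenerating enzyme, were at 0 in every library. Of the 8 genes of this list 5 were tested. FKBP4 and PTGES3, co-chaperones of the receptor, were called as higher in HT29 at log2 fold changes of 0.27 and 0.67, and NR3C1 as lower. The shares over all genes tested were 38.0% higher and 38.6% lower. With LPS, 0 of the 4 genes measured in HT29 and 0 of the 5 in HCT116 passed the size rule used for the LPS ratios. The shares of all measured genes past it were 3.48% higher and 2.66% lower in HT29, and 3.57% and 2.36% in HCT116. The shared LPS test called 0 of the 5, with 1 at an unadjusted p under 0.05 by edgeR, beside 1101 of 14516 over all genes.

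The 3 targets that act on kinase signalling differed in direction. SGK1 (chr6:134169248-134318112), a serine/threonine kinase that raises sodium uptake in epithelia, had 1468 counts (73.9 CPM) in HT29 with LPS and 1372 (76.1 CPM) in the HT29 control, against 100 (4.83 CPM) in HCT116 with LPS and 116 (5.13 CPM) in the HCT116 control. Both HT29 libraries were far above both HCT116 libraries, 15.0-fold by the fit (log2 fold change 3.91, SE 0.12, 95% interval 3.66 to 4.16, adjusted p 1.1e-16 by edgeR's quasi-likelihood test). It was the member with the widest gap between the lines, and the gap ran against that of NR3C1.

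ERRFI1 (chr1:8004404-8026309) encodes MIG6, an inhibitor that binds the EGF receptor and shuts it off. It had 2298 counts (116 CPM) in HT29 with LPS and 2110 (117 CPM) in the HT29 control, against 12185 (589 CPM) in HCT116 with LPS and 12724 (562 CPM) in the HCT116 control. The lines were well apart and the libraries within a line close, and HT29 was 4.95-fold lower (log2 fold change -2.31, SE 0.069, adjusted p 7.5e-17 by edgeR's quasi-likelihood test). A long noncoding RNA annotated antisense to ERRFI1 had 6 and 18 counts in HT29, against 40 and 34 in HCT116, and without the counting options reads of the pair cannot be told apart.

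DUSP1 (chr5:172768096-172771195) is a phosphatase that switches off the p38 and JNK kinases, and a route by which glucocorticoids restrain inflammatory signalling. It had 199 counts (10.0 CPM) in HT29 with LPS and 211 (11.7 CPM) in the HT29 control, against 390 (18.8 CPM) in HCT116 with LPS and 398 (17.6 CPM) in the HCT116 control. Both HT29 libraries were below both HCT116 libraries, by 1.68-fold in the fit (log2 fold change -0.75, SE 0.17, 95% interval -1.10 to -0.40, adjusted p 0.000412 by edgeR's quasi-likelihood test). This was the smallest gap among the 8 called members.

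The transcription regulators among the targets were divided as well. PER1 (chr17:8140472-8156506), a repressor in the circadian clock, had 518 counts (26.1 CPM) in HT29 with LPS and 510 (28.3 CPM) in the HT29 control, against 2456 (119 CPM) in HCT116 with LPS and 2104 (93.0 CPM) in the HCT116 control. HT29 was lower in both libraries, 3.87-fold by the fit (log2 fold change -1.95, SE 0.097, adjusted p 2.5e-13 by edgeR's quasi-likelihood test). The gap was -2.18 between the LPS libraries and -1.71 between the control libraries.

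KLF9 (chr9:70384604-70414657), a zinc finger repressor that restrains proliferation in several epithelia, was the member with the fewest counts among those tested. It had 29 counts (1.46 CPM) in HT29 with LPS and 19 (1.05 CPM) in the HT29 control, against 107 (5.17 CPM) in HCT116 with LPS and 159 (7.03 CPM) in the HCT116 control. The lines did not overlap, and HT29 was 4.78-fold lower with a wide interval (log2 fold change -2.26, SE 0.35, 95% interval -2.98 to -1.53, adjusted p 7.0e-06 by edgeR's quasi-likelihood test).

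CEBPD (chr8:47736913-47738164), a leucine zipper factor of the acute phase response, ran the other way. It had 563 counts (28.4 CPM) in HT29 with LPS and 442 (24.5 CPM) in the HT29 control, against 216 (10.4 CPM) in HCT116 with LPS and 213 (9.42 CPM) in the HCT116 control. Both HT29 libraries were higher, 2.66-fold by the fit (log2 fold change 1.41, SE 0.15, 95% interval 1.10 to 1.73, adjusted p 4.6e-08 by edgeR's quasi-likelihood test).

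TSC22D3 (chrX:107713221-107777342) encodes GILZ, a leucine zipper protein that binds and restrains NF-kappaB and AP-1. It had 526 counts (26.5 CPM) in HT29 with LPS and 525 (29.1 CPM) in the HT29 control, against 254 (12.3 CPM) in HCT116 with LPS and 325 (14.4 CPM) in the HCT116 control. As with SGK1 and CEBPD, the libraries with 0 and 1 counts of NR3C1 held the higher levels, 2.09-fold by the fit (log2 fold change 1.06, SE 0.14, 95% interval 0.77 to 1.36, adjusted p 8.7e-07 by edgeR's quasi-likelihood test). ZBTB16 (chr11:114059041-114256765), the transcription factor PLZF, is induced from a low baseline by steroids in other cells. It had 0 counts in all 4 libraries, and the 3 counts taken as the floor correspond to 0.133 to 0.166 CPM in these libraries.

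CRISPLD2 (chr16:84819985-84920768) encodes a secreted protein that binds LPS, the treatment used here. It had 77 counts (3.88 CPM) in HT29 with LPS and 72 (3.99 CPM) in the HT29 control, against 257 (12.4 CPM) in HCT116 with LPS and 283 (12.5 CPM) in the HCT116 control. The lines did not overlap and HT29 was 3.16-fold lower (log2 fold change -1.66, SE 0.21, 95% interval -2.10 to -1.22, adjusted p 5.1e-07 by edgeR's quasi-likelihood test). Positions of genes are those of GENCODE 44 on hg38, and the exonic length of the members runs from 1252 bases for CEBPD to 16557 for ZBTB16. No member and not NR3C1 had a near-identical copy elsewhere in the genome (at least 98% identity over at least 50% of a transcript).

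**Figure D2:**
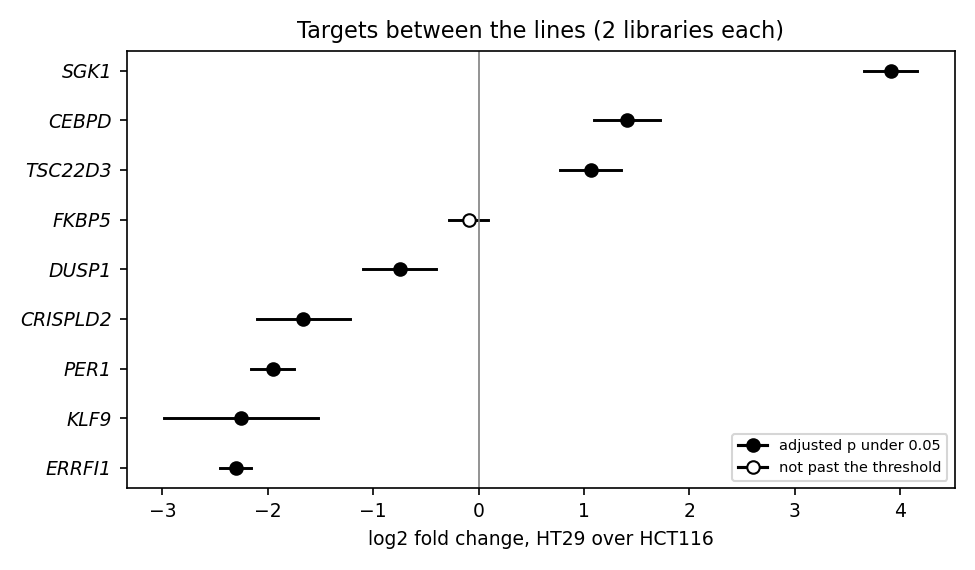
Fitted log2 fold change of HT29 over HCT116 for the 9 targets tested, with 95% intervals from edgeR's quasi-likelihood fit. The values run from -2.31 for ERRFI1 to 3.91 for SGK1, and only the interval of FKBP5, drawn as an open point, spans 0.

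Set on a scale that allows genes to be compared, CPM per kb of exonic length, the order of the members changed between the lines. In HT29, with and without LPS, ERRFI1 had 27.7 and 28.0 CPM per kb and CEBPD 22.6 and 19.6, followed by SGK1 with 7.40 and 7.62. FKBP5 (5.87 and 5.28), TSC22D3 (5.34 and 5.87) and DUSP1 (4.98 and 5.81 CPM per kb) overlapped each other in HT29, and PER1 (3.73 and 4.04), CRISPLD2 (0.487 and 0.501) and KLF9 (0.281 and 0.203) followed. In HCT116, ERRFI1 again led with 140.9 and 134.6 CPM per kb, followed by PER1 with 16.9 and 13.3, DUSP1 with 9.36 and 8.74 and CEBPD with 8.34 and 7.52. FKBP5 (5.52 and 6.37), TSC22D3 (2.48 and 2.90), CRISPLD2 (1.56 and 1.57), KLF9 (0.994 and 1.35) and SGK1 (0.484 and 0.513 CPM per kb) came after, with no overlap between neighbours. SGK1 thus stood behind only ERRFI1 and CEBPD in HT29 and last of the expressed members in HCT116. The exonic length joins all isoforms of a gene, so these levels are approximate.

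The second comparison asked whether the targets moved with LPS in a line with the receptor and in a line without detectable NR3C1. With 1 library per condition there is no test within a line, and a log2 ratio past 0.58 in either direction was used as a rule of size. None of the members passed it, 0 of 9 in HT29 and 0 of 9 in HCT116. Over all genes measured in HT29, 3.48% passed it as higher and 2.66% as lower, and in HCT116 3.57% and 2.36%. The members' median log2 ratio of LPS over control was -0.04 in HT29 and -0.01 in HCT116, and the median over all genes was -0.01 and 0.00.

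PER1 was at a log2 ratio of -0.12 in HT29 (95% counting interval -0.30 to 0.06) and of 0.35 in HCT116 (0.27 to 0.44). Among all genes in HCT116, 15.0% had a larger absolute ratio than PER1. KLF9, on few counts, had 0.43 in HT29 (-0.41 to 1.39) and -0.44 in HCT116 (-0.81 to -0.08), where 10.4% of genes had a larger absolute ratio. For both genes the HT29 and HCT116 values have opposite signs, and the HT29 interval spans 0.

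FKBP5 had a log2 ratio of 0.15 in HT29 (95% counting interval 0.03 to 0.27) and of -0.21 in HCT116 (-0.32 to -0.10). These intervals both exclude 0 and lie on opposite sides of it, though 42.6% of genes in HT29 and 31.6% in HCT116 had larger absolute ratios. CEBPD was at 0.21 in HT29 (0.03 to 0.39) and 0.15 in HCT116 (-0.13 to 0.43). TSC22D3 was at -0.14 and -0.23 in HT29 and HCT116, DUSP1 at -0.22 and 0.10, and SGK1 at -0.04 and -0.08. ERRFI1 was at -0.02 in HT29 and 0.07 in HCT116 (0.03 to 0.10), and CRISPLD2 at -0.04 and -0.01.

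**Figure D3:**
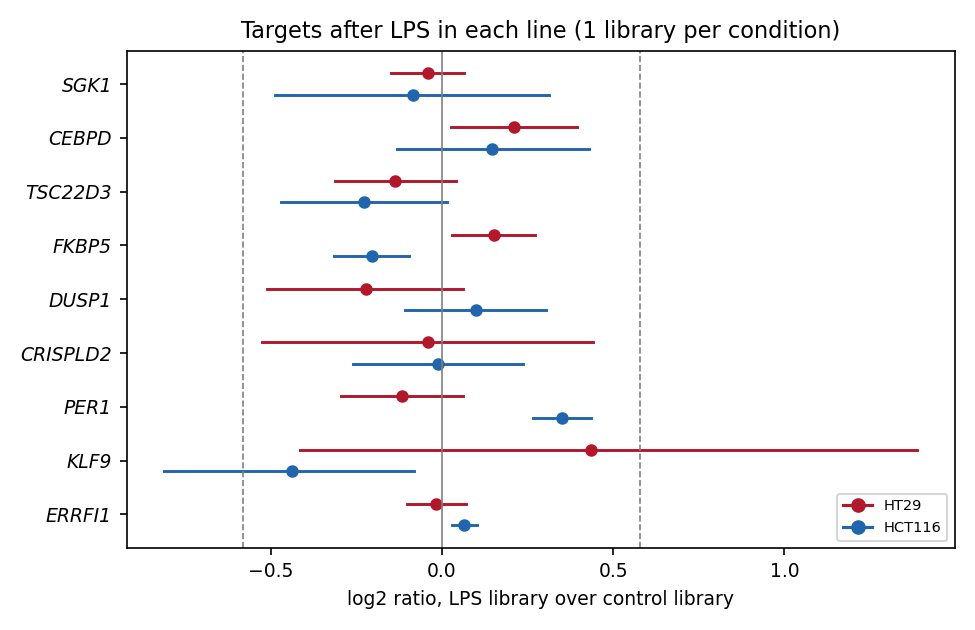
Log2 ratios of LPS over control for the 9 targets in HT29 (red) and HCT116 (blue), with 95% exact counting intervals and dashed lines at the 0.58 size rule. All points lie inside the dashed lines, PER1 in HCT116 is at 0.35, and the FKBP5 intervals lie on opposite sides of 0.

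A test of LPS shared by both lines, edgeR's quasi-likelihood test over the 4 libraries with the cell line as a block, called 0 of the 9 members, and 0 had an unadjusted p under 0.05. Over all genes it called 0.124% as higher and 0.0964% as lower, and 1101 of 14516 genes had an unadjusted p under 0.05. The members' shared log2 fold changes ran from -0.18 for TSC22D3 to 0.18 for CEBPD, and the lowest adjusted p, that of PER1, was 0.788 by this edgeR test. DESeq2, which gave an adjusted p for 1 of the 9, called 0 as well.

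The wider set of genes that glucocorticoids induce also held calls in both directions. Of 48 such genes, 39 were tested, of which 13 were higher in HT29, 18 were lower and 8 did not pass edgeR's quasi-likelihood test, with a median log2 fold change of -0.11. The 31 called of 39 stand beside 11112 called of 14516 genes over the whole table. TXNIP, which holds back thioredoxin, had 755 and 529 counts in HT29 with and without LPS, against 1 and 1 in HCT116, a summed ratio of 734 (95% exact interval 203 to 6068). LCN2, an iron-trapping antimicrobial protein, had 2942 and 1859 counts in HT29, against 24 and 28 in HCT116 (log2 fold change 6.69).

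Others in this set were higher in HT29 on few HCT116 counts. EDN1, the vasoconstrictor endothelin-1, had 258 and 283 counts in HT29, against 9 and 1 in HCT116 (summed ratio 61.9, 95% exact interval 33.4 to 130). AZGP1, a secreted glycoprotein, had 82 and 85 counts in HT29, against 3 and 10 in HCT116 (14.7, 8.36 to 28.2). Among the genes lower in HT29, STOM, a membrane protein, had 1 and 1 counts in HT29, against 506 and 561 in HCT116, a summed ratio of HCT116 over HT29 of 467 (129 to 3858).

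CDKN1A, the cell cycle inhibitor p21, had 327 and 232 counts in HT29, against 15416 and 15787 in HCT116, 49.2-fold lower in HT29 by the fit. ANGPTL4, an inhibitor of lipoprotein lipase, had 10 and 3 counts in HT29, against 352 and 360 in HCT116 (HCT116 over HT29 47.9, 95% exact interval 27.8 to 90.4). GADD45B, a stress sensor, had 24 and 16 counts in HT29, against 272 and 229 in HCT116 (log2 fold change -3.47). Within 1 set of induced genes the lines therefore differed by more than 10-fold in either direction. The genes named were picked as the ends of the set by this same difference. Over all genes tested, the 5th and 95th percentiles of the log2 fold change were -5.84 and 2.75.

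With LPS, 2 of the 37 genes of this set measured in HT29 passed 0.58 as higher and 1 as lower, and 1 of 36 in HCT116 as higher. Over all genes 3.48% passed it as higher and 2.66% as lower in HT29, and 3.57% and 2.36% in HCT116. TNFAIP3, the NF-kappaB inhibitor A20, had 120 counts in HT29 with LPS and 48 in the control (log2 ratio 1.15, 95% counting interval 0.69 to 1.70), and 66 and 90 in HCT116 with and without LPS. CDKN1C, the cell cycle inhibitor p57, had 16 and 23 counts in HT29 with and without LPS (-0.60, -1.68 to 0.32), and 214 and 88 in HCT116 (1.39, 1.05 to 1.79). MERTK, a receptor that clears dying cells, had 46 and 27 counts in HT29 with and without LPS (0.60, -0.09 to 1.37). The shared edgeR test called none of the 39 (0 called, 4 with an unadjusted p under 0.05, beside 1101 of 14516 over all genes). LCN2 was called as higher with LPS in that test under other filters on low counts. Its log2 ratio of LPS over control was 0.52 in HT29 (95% counting interval 0.44 to 0.61). In HCT116 it was -0.09 (-0.94 to 0.75), on 24 counts with LPS and 28 in the control.

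**Figure D4:**
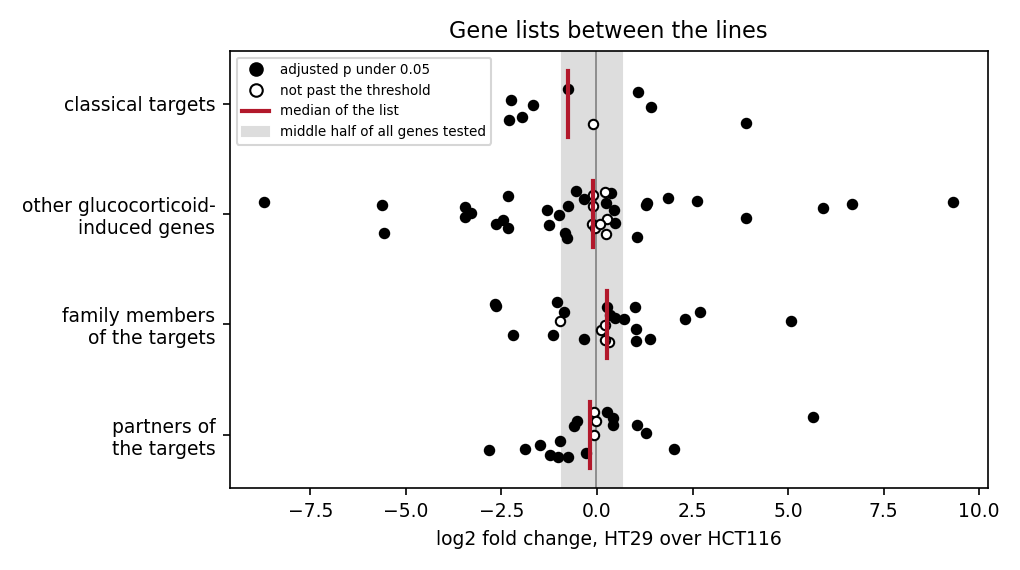
Log2 fold change of HT29 over HCT116 for the genes tested in 4 lists, filled where edgeR's adjusted p was under 0.05, with each list's median in red and the interquartile range of all genes shaded. Every list spreads to both sides of 0, with medians of -0.75 for the 9 targets, -0.11 for the 39 other induced genes, 0.27 for the 23 family members and -0.19 for the 20 partners.

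Of 26 family members of the targets 23 were tested, with 11 higher and 7 lower in HT29 and a median of 0.27, beside 38.0% higher and 38.6% lower over all genes. In the SGK family, SGK2 had 1017 and 944 counts in HT29 with and without LPS, against 45 and 21 in HCT116 (log2 fold change 5.09), while SGK3 had 21 and 19 in HT29, against 134 and 157 in HCT116 (-2.66). SGK1 and SGK2 were thus both higher in HT29. KLF5, a factor of proliferating crypt cells, had 8126 and 7483 counts in HT29, against 1367 and 1401 in HCT116 (2.69), opposite to KLF9. DUSP5, a phosphatase of nuclear ERK, had 268 and 251 counts in HT29, against 1773 and 1941 in HCT116 (fitted ratio 6.25-fold lower in HT29), the same direction as DUSP1. With LPS, 0 of the 22 family members measured in HT29 passed 0.58, beside 3.48% higher and 2.66% lower over all genes. In HCT116, 1 of the 24 measured passed it as higher, SGK2 with 45 counts against 21 (log2 ratio 1.15, and -0.03 in HT29). Another 1 passed it as lower, KLF14 with 20 counts against 49, a gene chosen here once its values were known. Over all genes in HCT116, 3.57% passed it as higher and 2.36% as lower. In the shared edgeR test 0 of the 23 were called and 2 had an unadjusted p under 0.05, beside 1101 of 14516 over all genes.

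The partners with which the target proteins work were tested for 20 of 22 genes, of which 7 were higher and 10 lower in HT29 (median -0.19), again beside 38.0% and 38.6% over all genes. Among the clock genes beside PER1, the repressor BHLHE41 had 3651 and 3418 counts in HT29 with and without LPS, against 68 and 93 in HCT116 (log2 fold change 5.65), while its relative BHLHE40 had 297 and 258 in HT29, against 1111 and 1221 in HCT116 (-1.88). DBP, a clock output factor, had 138 and 112 counts in HT29, against 934 and 1083 in HCT116 (-2.82), the same direction as PER1. ERBB3, a receptor of the EGF receptor family that ERRFI1 restrains, had 3439 and 2899 counts in HT29, against 896 and 899 in HCT116 (2.01), opposite to ERRFI1. No partner passed 0.58 with LPS in either line (0 of 20 in each). Over all genes 3.48% passed it as higher and 2.66% as lower in HT29, and 3.57% and 2.36% in HCT116. The shared edgeR test called 0 of the partners, with 3 at an unadjusted p under 0.05, beside 1101 of 14516 over all genes.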

How the data were processed

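RNA of HT29 and HCT116, each with LPS and as a control, was sequenced once per condition (library kit NEBNext Ultra). The authors aligned cleaned reads to hg38 with HISAT2 2.1.0 and deposited raw counts per GENCODE gene from featureCounts 2.0.1, with cutadapt 1.9 and Trimmomatic 0.39 listed in the submitters' notes on processing. Which counting options were set for strand and multiple alignments, and which annotation release was used, is not given in the sources used here.

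Counts were scaled by TMM (factors 0.944 to 0.953 in HT29 and 1.05 to 1.06 in HCT116) and tested with edgeR 4.0.16 (limma 3.58.1, R 4.3.3) in 1 fit with line and treatment as terms and 1 residual degree of freedom, over the 14516 genes averaging 1 CPM or more, called at an adjusted p under 0.05. Within a line, log2 ratios used a prior count of 2, with 95% Clopper-Pearson intervals, over 13201 genes in HT29 and 14337 in HCT116. The 0.58 rule is the fold threshold that the study's methods give for its microarrays. Copies were sought with minimap2 2.31-r1302.

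The members and the lists (steroid receptors and cortisol enzymes, other glucocorticoid-induced genes, family members, partners, cell type markers) were chosen with earlier results of these data known. FKBP4 stands in the receptor and the family list, and SCNN1A in the induced and the partner list. Named were all members and receptor genes (1 of which is not reported here), the 4 called induced genes highest and the 4 lowest in HT29 over HCT116, up to 3 per line past 0.58 with LPS, and the 4 called family members and the 4 partners farthest apart between the lines. Alternatives were library size alone, DESeq2 1.42.0 or its size factors, TMM within a line, no filter, 5 CPM as the minimum, prior counts of 0.5 and 5, a size threshold of 1, no block, counts thinned to the smallest library, and control or LPS libraries alone.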

Additional observations from a re-analysis of the deposited data

Results flagged for a closer look

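FKBP5 was the member whose LPS ratios lay on opposite sides of 0 with both counting intervals clear of it. The log2 ratio of LPS over control was 0.15 in HT29 and -0.21 in HCT116. Each value rests on 1 library per condition, and whether the lines differ was not tested, since a fit with that term leaves no residual degree of freedom.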

How the results depend on the processing

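Of the 7 alternatives that test the lines, 5 called 8 of the 9 members between the lines, as the fit reported did. The others were library size alone, which called 9, FKBP5 included (-0.24, adjusted p 0.0307 by edgeR), and a minimum of 5 CPM, which called 7 of the 8 genes left. Between the lines, the fit reported called 5514 of all 14516 genes tested as higher in HT29 and 5598 as lower. The 5 alternatives with 8 members called had 5297 to 5803 higher and 5525 to 6417 lower. Library size alone had 4596 and 6384, and a minimum of 5 CPM had 4823 and 4304. The log2 fold change of FKBP5 was between -0.27 and 0.09 over its alternatives (adjusted p 0.0307 to 0.608 by edgeR and DESeq2). No member passed 0.58 with LPS and none was called in the shared test under any alternative, though DESeq2 gave an adjusted p there for 1 of the 9. The other induced genes had 1 call in the shared test, LCN2, with no filter on low counts (adjusted p 0.0150) and 1 call, again LCN2, with a minimum of 5 CPM (adjusted p 0.00138), against 0 in the fit reported (adjusted p 0.0906). Over all genes the shared test called 18 higher and 14 lower; it called 35 and 58 with DESeq2, 6 and 8 with DESeq2 size factors, 58 and 45 with no filter, 78 and 58 with a minimum of 5 CPM, and 0 and 0 without the block. The cause was not tested. No paired analysis was possible because each condition has 1 library and the replicate numbers pair nothing beyond the treatment and line terms already fitted. With 1 library per condition, a culture effect and LPS cannot be told apart, and KLF9 in HT29 and NR3C2 rest on at most 50 counts per library.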
